A study of Mus musculus with 46 samples.

Results

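The respiratory chain of mitochondria and its ATP synthase were followed here through the mRNA of their subunits in mouse BNST tissue. BNST stands for bed nucleus of the stria terminalis, which belongs to the extended amygdala and takes part in stress and anxiety responses. All probesets whose platform annotation gave exactly 1 gene symbol, and whose symbol began with Ndufa, Ndufb, Ndufc, Ndufs, Ndufv, Sdh, Uqcr, Atp5 or Cox4 to Cox8, were taken. The rule reads symbols and not values, but it was chosen with earlier results of these data known. This gave 185 of 45037 probesets and 94 of 18193 named genes. By symbol, 78 probesets of 36 genes belonged to complex I, 9 of 4 genes to complex II, 16 of 8 genes to complex III, 35 of 17 genes to complex IV and 31 of 17 genes to ATP synthase. The remaining 16 probesets of 12 genes were assembly factors (Ndufaf and Sdhaf genes), which build complexes I and II and are not part of them. Ndufa4 was counted with complex I by its symbol, although it is now placed in complex IV.

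The chain passes electrons from NADH through complex I, and from succinate through complex II, to ubiquinone, then through complex III and cytochrome c to complex IV, where oxygen is reduced. Complexes I, III and IV pump protons as they work, and ATP synthase uses the proton gradient to make ATP. Neurons depend on this ATP for ion pumping and transmitter release, and nearly all subunits are encoded in the nucleus, while a small set of core subunits is encoded in mitochondrial DNA.

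Mice were adult male C57BL/6J animals, 1 per array and none pooled, killed at 1 of 4 times (0 h, 8 h, 72 h or 7 d) counted from the end of vapor exposure. CIE (chronic intermittent ethanol) mice had 4 cycles of ethanol vapor, each of 4 days at 16 h per day and divided by 7 days of abstinence, and were given ethanol (1.6 g/kg) with pyrazole (1 mmol/kg) before each cycle. Ctrl mice had air in place of vapor and saline with the same pyrazole, so every animal carried this inhibitor of alcohol dehydrogenase and Ctrl is not an untreated state. There were 6 mice in each group of treatment and time except CIE at 7 d, which had 4 arrays. Values were deposited log2 intensities. Array medians lay between 6.78 and 6.83, any pair of arrays correlated between 0.981 and 0.998, and no 2 arrays held identical values. For the 11 of 12 BNST markers measured, the mean level per group lay between 9.56 and 9.80, and for 7 of 9 markers of medium spiny neurons of the neighbouring striatum between 10.18 and 10.80.

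Members were among the brighter features of the arrays. Of 185 probesets, 160 had a mean log2 value above the median of all probesets (6.79). The brightest probeset of each gene (its representative) ranged from 5.14 for Cox7b2, a testis isoform of complex IV, to 14.00 for Cox6a1, the widely used isoform of a complex IV subunit, and 88 of 94 representatives were above that median. Signals of different probesets depend on probe affinity, so these levels do not rank the genes against each other. More than 1 probeset was present for 53 genes and 48 member probesets had an ID ending in _x_at or _s_at, which marks probes that can match several transcripts.

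CIE was first set against Ctrl at 0 h, straight after the last session. Respiratory chain signal was lower in CIE mice by a small amount shared by most members: 159 of 185 probesets (85.9%) were lower, against 51.1% of all probesets, with a median CIE minus Ctrl difference of -0.074 log2 (-5.0%) against -0.0030 for all probesets. The largest single differences were those of probesets for Atp5g1, which encodes the c subunit of the proton-driven ring of ATP synthase, and Cox7a1, the muscle isoform of a complex IV subunit. At an adjusted p of 0.01 or less (LIMMA fitted to all 46 arrays, Benjamini-Hochberg over 45037 probesets), 7 members passed, 0 rose and 7 fell, or 3.78% of members, while 2.4% of all probesets were called at this time. By count of calls, members were near the background in this fit. Elsewhere the members' share was 11.4% against 4.92% of all (adjusted p of 0.05) or 10% against 5.52% (only brighter probesets). With only these 2 groups fitted it was 0.541% against 0.637%. When only the CIE and Ctrl arrays of 0 h were fitted, 1 member was called (Atp5g1 1444874_at), with 0.637% of all probesets called, and at 8 h 1 member in the same way (Ndufab1 1435934_at), with 0.0799% of all. At an unadjusted p below 0.05, 69 members were lower and 1 was higher, which is 37.8% of members against 16.5% of all probesets. Members share mice and move together between mice, so these counts are a description and not a test.

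**Figure D1:**
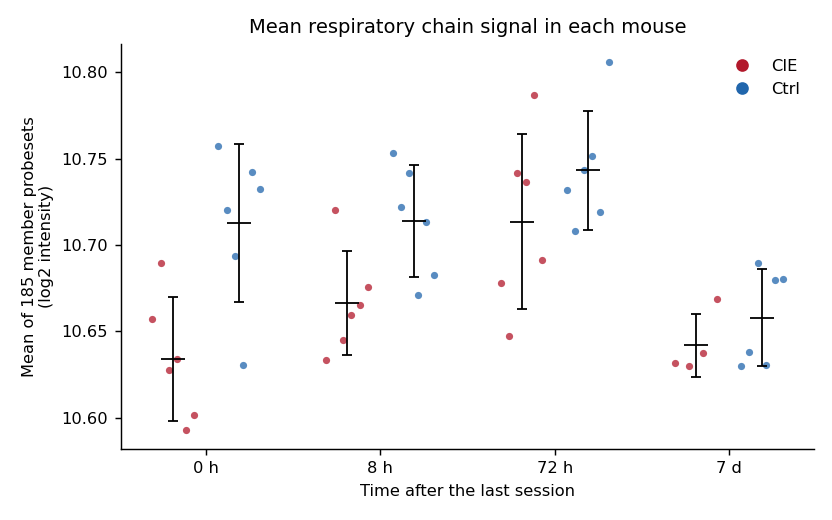
Mean log2 intensity of the 185 member probesets in each mouse (points) for CIE and Ctrl at each time after the last session, with the group mean and SD in black. All 6 CIE mice at 0 h lay below the Ctrl median, and 1 Ctrl mouse at 0 h (10.63) lay within the CIE range.

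Averaged over all members, CIE mice at 0 h had a lowest, median and highest mean of 10.59, 10.63 and 10.69, against 10.63, 10.73 and 10.76 in Ctrl mice. The groups overlapped through Ctrl replicate 48 (10.63), and 3 of 6 CIE mice lay below every Ctrl mouse. The mean was 10.63 ± 0.04 in CIE mice and 10.71 ± 0.05 in Ctrl mice (SD, n = 6 each). Without Ctrl replicate 48 the median difference was -0.086 and 20 members were called in place of 7 (10.8% of members, with 3.24% of all probesets called). Without CIE replicate 21 of the 8 h group 11 members were called (5.95%, against 2.66% of all). Without Ctrl replicate 12 or 56 the call count was 3 (1.62%, against 1.94% and 2.09% of all), and without Ctrl replicate 64 or CIE replicate 26, 43 or 67 it was 4 (2.16%, against 1.62% to 1.97% of all).

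The lower signal was seen in each complex by its median, and most evenly in complex III. Complex III, which hands electrons from ubiquinol to cytochrome c, had 16 of 16 probesets lower (median -0.092). ATP synthase had 29 of 31 lower (median -0.068), complex I 67 of 78 (median -0.073), complex IV 27 of 35 (median -0.055) and complex II 6 of 9 (median -0.033). Assembly factors had 14 of 16 lower with a median of -0.10. The averaged level of ATP synthase did not overlap between groups, with a mean of 11.34 ± 0.03 in CIE mice and 11.43 ± 0.02 in Ctrl mice (SD, n = 6 each). For complex III 5 of 6 CIE mice lay below every Ctrl mouse, and for complex II none did. In the 2 largest classes, complexes I and IV, only 1 of 6 did, and for assembly factors 2 of 6.

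**Figure D2:**
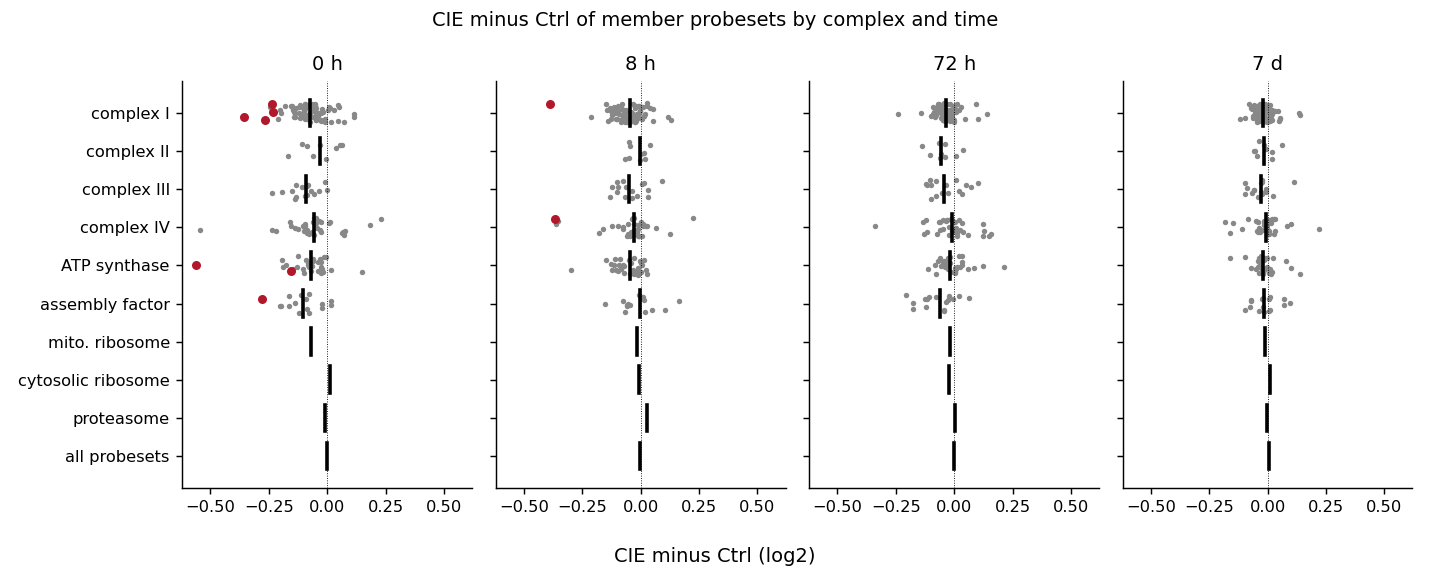
CIE minus Ctrl difference (log2) of each member probeset at 0 h, 8 h, 72 h and 7 d, by complex, with black bars at the median of each class and of 3 comparison sets and all probesets. Red points passed an adjusted p of 0.01, and at 0 h the class medians run from -0.10 (assembly factors) to -0.033 (complex II).

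Gene sets of similar brightness or function were read from the same fit, in which 2.4% of all probesets were called at 0 h. Mitochondrial ribosomal protein genes, whose products translate the mitochondrially encoded subunits, had 120 of 156 probesets lower in CIE mice at 0 h with a median of -0.072, and 12 fell and 1 rose. Cytosolic ribosomal protein genes had a median of 0.013 with 0 of 103 called, and proteasome genes had a median of -0.0098 with 1 of 80 fallen. For the averaged level of mitochondrial ribosomal protein genes, 5 of 6 CIE mice lay below every Ctrl mouse. This count was 1 for cytosolic ribosomal protein genes and 0 for proteasome genes. Whether the members differed from these sets was not tested.

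Among complex I members, the called probesets at 0 h were 2 for Ndufab1, 1 for Ndufa10 and 1 for Ndufs8. Ndufab1 encodes the mitochondrial acyl carrier protein, which sits in complex I and also serves fatty acid synthesis in the organelle. Its probeset 1435934_at had a lowest, median and highest log2 value of 8.02, 8.08 and 8.19 in CIE mice, against 8.20, 8.33 and 8.47 in Ctrl mice. The groups did not overlap, and the probeset fell by 0.23 ± 0.05 (SE, adjusted p = 0.00116). A second and dim probeset of Ndufab1, 1458678_at, had 5.26, 5.46 and 5.52 in CIE mice, against 5.55, 5.81 and 6.02 in Ctrl mice, and fell by 0.36 ± 0.07 (adjusted p = 0.00167). The brightest Ndufab1 probeset, 1428159_s_at, ranged from 12.19 to 12.30 in CIE mice and from 12.17 to 12.41 in Ctrl mice and was not called (-0.094, adjusted p = 0.183).

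Ndufa10 is an accessory subunit of complex I. Its probeset 1418068_at had 7.68, 7.79 and 7.86 in CIE mice, against 7.90, 8.05 and 8.19 in Ctrl mice, with no overlap, and fell by 0.27 ± 0.06 (adjusted p = 0.00585). The bright Ndufa10 probeset 1448934_at differed by -0.097 (adjusted p = 0.234). Ndufs8 carries iron-sulfur clusters on the electron path to ubiquinone. Its probeset 1423908_at had 10.62, 10.77 and 10.90 in CIE mice, against 10.93, 10.99 and 11.09 in Ctrl mice, and fell by 0.23 ± 0.06 (adjusted p = 0.00906). All 6 Ndufs8 probesets were lower in CIE mice, with a difference of -0.20 for 1423907_a_at (adjusted p = 0.0149) and -0.012 for 1434212_at (adjusted p = 0.967). The Ndufs8 call was lost in 24 of 46 fits that left out 1 array.

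In ATP synthase, probesets of Atp5g1 and Atp5pb passed at 0 h. Atp5g1 probeset 1444874_at had 6.24, 6.41 and 6.54 in CIE mice, against 6.81, 6.93 and 7.25 in Ctrl mice. All 6 CIE mice lay below every Ctrl mouse, and the probeset fell by 0.56 ± 0.07 (adjusted p = 6.99e-07), a difference of -32.3% on the linear scale. The bright Atp5g1 probeset 1416020_a_at ranged from 11.73 to 11.98 in CIE mice and from 11.69 to 12.08 in Ctrl mice and differed by -0.092 (adjusted p = 0.368). Atp5pb encodes the b subunit of the stalk that holds the catalytic head in place. Its probeset 1426742_at had 12.03, 12.09 and 12.11 in CIE mice, against 12.13, 12.21 and 12.35 in Ctrl mice, and fell by 0.15 ± 0.03 (adjusted p = 0.00377), whereas 1433562_s_at of the same gene differed by -0.013 (adjusted p = 0.910).

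Ndufaf2 was the only gene whose representative probeset passed at 0 h. Its product is an assembly factor that binds a late intermediate of complex I and leaves when the enzyme is complete. Ndufaf2 had 8.29, 8.41 and 8.44 in CIE mice, against 8.47, 8.65 and 8.89 in Ctrl mice, without overlap, and fell by 0.28 ± 0.07 (adjusted p = 0.00657). Just outside the threshold were Ndufaf5, which modifies a complex I subunit during assembly (-0.20, adjusted p = 0.0126), and Ndufb3, a membrane arm subunit (-0.14, adjusted p = 0.0131). Cox7a1 was -0.54 (adjusted p = 0.0167), with 5.88, 6.07 and 6.45 in CIE mice against 6.19, 6.69 and 7.18 in Ctrl mice, which overlapped.

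**Figure D3:**
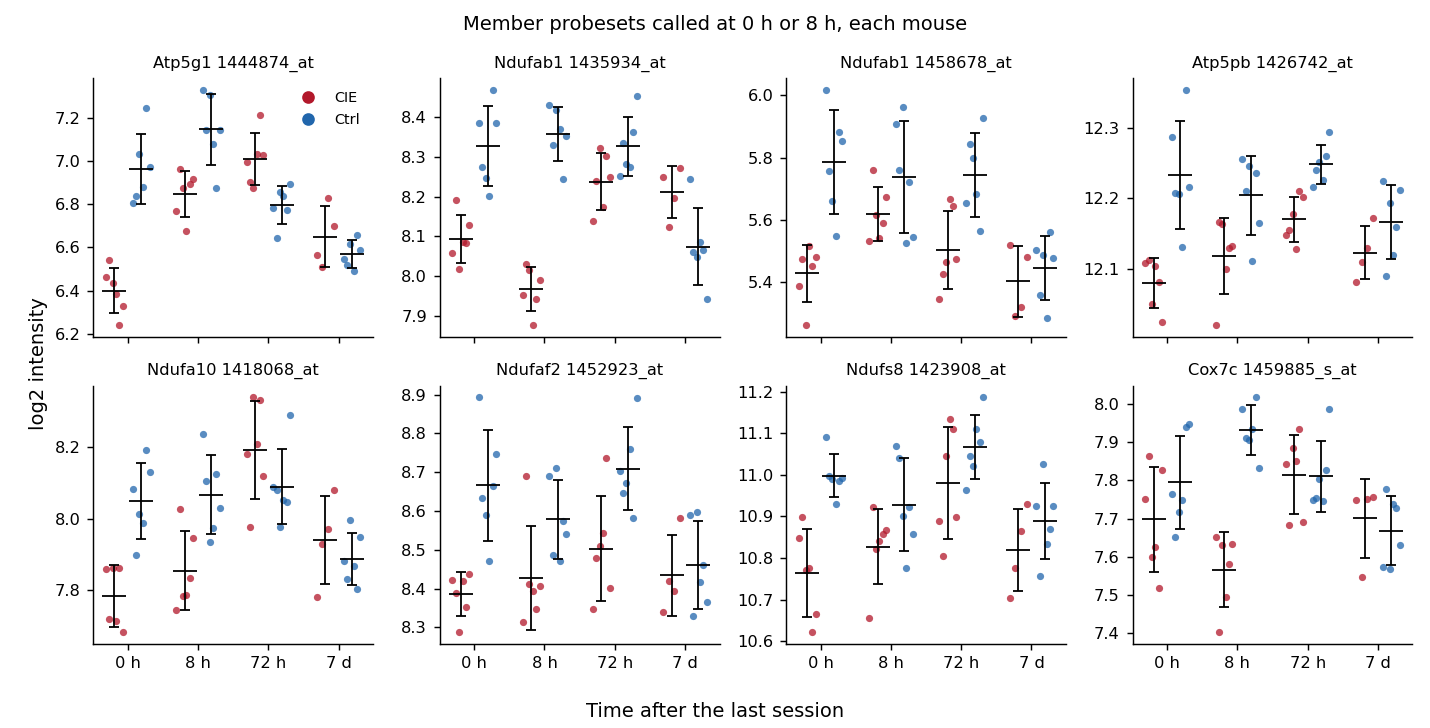
Log2 intensity in each mouse (points), with the group mean and SD in black, for the 8 member probesets called at 0 h or 8 h, at each time after the last session. At 0 h the CIE and Ctrl points do not overlap for 7 of the 8, and Cox7c separates at 8 h. The 8 were drawn because they were called, so this separation follows from the choice and adds no support.

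A single gene's probesets did not always change alike. Of the 7 probesets called at 0 h, 6 were not the representative of their gene. The other 11 probesets of these 6 genes were all lower in CIE mice, between -0.21 and -0.012, and none of them passed. The median mean log2 value was 8.20 for the called probesets, 12.26 for the other probesets of the same genes and 12.01 for all members. Across the 53 genes with more than 1 probeset, all probesets had the same sign in 37 genes, of which 35 were lower throughout and 2 higher throughout, and the median spread between probesets of a gene was 0.071. Whether these probesets match other transcripts of the gene was not tested.

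**Figure D4:**
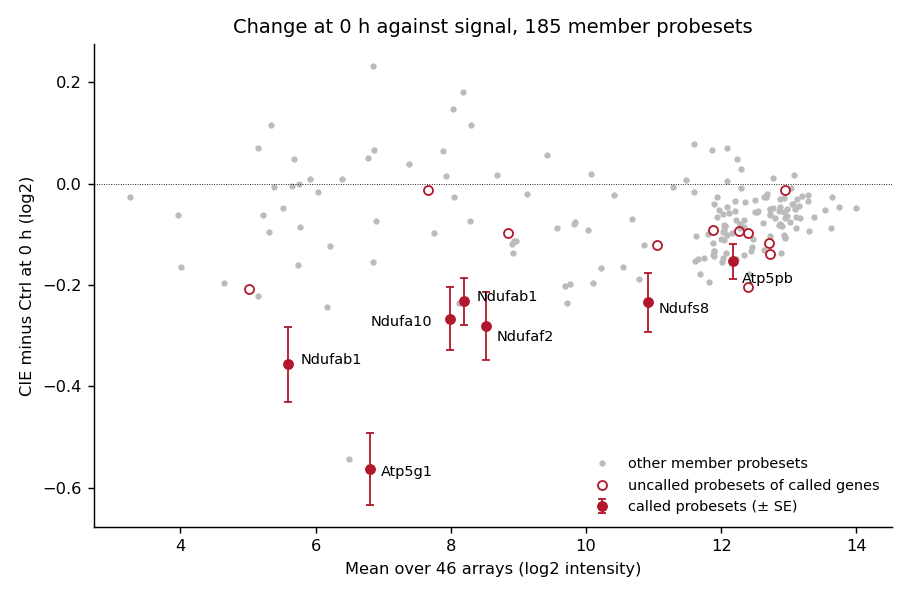
CIE minus Ctrl difference at 0 h (log2) against the mean log2 intensity over 46 arrays for the 185 member probesets. Called probesets (red, with SE) lie mostly at middle and low signal, and the open red circles, uncalled probesets of the same genes, lie between -0.21 and -0.012.

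The subunits used most often to stand for each complex were lower in CIE mice at 0 h but did not pass. In complex I these were Ndufs1, the large iron-sulfur subunit (-0.15, adjusted p = 0.0889), Ndufv1, which binds NADH (-0.073, adjusted p = 0.468), Ndufa9 (-0.052) and Ndufb8 (-0.026). In complex II, Sdha, the flavoprotein that oxidizes succinate, was -0.033 and Sdhb, its iron-sulfur partner, -0.087. In complex III, Uqcrfs1, the Rieske iron-sulfur protein, was -0.13 (adjusted p = 0.085), Uqcrc1 -0.14 and Uqcrc2 -0.057. In complex IV, Cox4i1 was -0.052 and Cox5a -0.088. In ATP synthase the alpha subunit gene Atp5a1 was -0.026 and the beta subunit gene Atp5b -0.067. Members above 0 at 0 h included Cox8c, a testis isoform (0.18), Cox7a2l, which helps to join complexes III and IV into supercomplexes (0.070), and a probeset of Atp5c1 (0.15, unadjusted p = 0.0123), and none of them passed.

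Isoform pairs of complex IV were read side by side. Cox4i1, the general isoform, differed by -0.052 and Cox4i2, an isoform linked to low oxygen, by -0.048 at 0 h. Cox6a1 differed by -0.048 and its muscle counterpart Cox6a2 by -0.24 (adjusted p = 0.372). Cox7a2, the general isoform, differed by -0.044 and the muscle isoform Cox7a1 by -0.54. Cox8a differed by -0.057, Cox8b by -0.16 and Cox8c by 0.18. None of these 9 isoform genes passed in CIE against Ctrl at any time. In complex I, Ndufa4 differed by -0.040 and its hypoxia-linked paralog Ndufa4l2 by 0.0091 at 0 h.

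Promoter sequence of the member genes was described with no test. RefSeq windows of GRCm38.p6, from 250 bases before to 50 bases after the gene start, were matched by gene ID for 78 of 94 member genes (83 windows). Motifs of factors known to act on nuclear genes of the chain were searched on both strands, with overlapping matches allowed: NRF1 (GCGCATGC), GABPA (CCGGAAG), YY1 (AANATGGC) and ERR alpha (CAAGGTCA). NRF1 letters were in 13.3% of member windows and 2.71% of all 32851 windows, GABPA letters in 26.5% and 8.86%, YY1 letters in 21.7% and 6.05%, and ERR alpha letters in 4.82% and 1.56%. At least 1 of the 4 was in 44 of 83 member windows (53.0%) and in 17.5% of all windows. The windows of 4 members are shown, 3 with a called probeset and Uqcrc1 as a complex III member, with matches in capitals.
Ndufs8: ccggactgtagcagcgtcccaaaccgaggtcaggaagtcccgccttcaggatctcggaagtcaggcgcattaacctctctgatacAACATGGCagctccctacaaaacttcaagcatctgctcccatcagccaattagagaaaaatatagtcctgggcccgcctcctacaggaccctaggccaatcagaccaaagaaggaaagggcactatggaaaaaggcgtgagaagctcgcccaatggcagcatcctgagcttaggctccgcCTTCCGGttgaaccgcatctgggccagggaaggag
Atp5pb: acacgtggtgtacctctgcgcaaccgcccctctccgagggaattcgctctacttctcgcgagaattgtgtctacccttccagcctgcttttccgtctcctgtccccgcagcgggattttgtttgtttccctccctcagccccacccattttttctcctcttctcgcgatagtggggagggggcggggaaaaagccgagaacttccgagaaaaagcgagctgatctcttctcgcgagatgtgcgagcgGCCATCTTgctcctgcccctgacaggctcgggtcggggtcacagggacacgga
Ndufab1: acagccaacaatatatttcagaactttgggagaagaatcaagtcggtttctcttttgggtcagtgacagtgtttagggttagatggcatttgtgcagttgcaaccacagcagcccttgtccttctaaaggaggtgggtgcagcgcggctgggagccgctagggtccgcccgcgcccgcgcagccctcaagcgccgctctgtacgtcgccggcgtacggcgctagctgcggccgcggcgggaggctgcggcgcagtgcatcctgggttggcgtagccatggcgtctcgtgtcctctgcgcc
Uqcrc1: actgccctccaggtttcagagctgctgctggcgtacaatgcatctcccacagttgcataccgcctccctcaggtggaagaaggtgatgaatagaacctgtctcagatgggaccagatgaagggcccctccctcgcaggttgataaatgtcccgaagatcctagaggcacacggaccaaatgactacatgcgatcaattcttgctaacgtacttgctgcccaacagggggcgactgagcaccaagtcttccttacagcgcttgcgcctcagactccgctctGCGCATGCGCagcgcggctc
The window of Ndufs8 (chr19:3912725-3913024, minus strand) held YY1 letters from base 86 and GABPA letters from base 266, counted from 1 at its 5′ end. That of Atp5pb (chr3:105959214-105959513, minus strand) held YY1 letters from base 248, and that of Ndufab1 (chr7:122101799-122102098, minus strand) held none of the 4. In the window of Uqcrc1 (chr9:108936398-108936697, plus strand), a member with no called probeset, NRF1 letters began at bases 281 and 283, once on each strand. The windows of Atp5g1, Cox7c, Ndufaf2, Ndufa10 and Cox7a1 held none of the 4. A match is a string of letters, and binding was not measured. Whether these letters relate to the CIE minus Ctrl difference was not tested.

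Other mitochondrial genes were read at 0 h, when 2.4% of all probesets were called, from lists of related genes. Of genes that feed the chain or shuttle its electrons, 1 of 15 fell and the median was -0.060. The gene that fell was Coq7, a hydroxylase of ubiquinone synthesis (-0.28, adjusted p = 0.0023), and Cyc1, the cytochrome subunit of complex III whose symbol is outside the rule, was -0.13 (adjusted p = 0.0367). Of assembly factors with other symbols, 1 of 33 fell (median -0.061), namely Bcs1l, which inserts the Rieske protein into complex III (-0.22, adjusted p = 3.36e-04). Of regulators of mitochondrial biogenesis, 12 of 20 (60%) were lower, against 51.1% of all probesets, with a median of -0.040 and a highest value of 0.19. The call rule was met by 3 of them, all of which fell. They were Gabpb1, a partner of GABPA (-0.28, adjusted p = 0.00861), Nrf1, the factor of the NRF1 motif (-0.28, adjusted p = 0.00545), and Pprc1, a coactivator (-0.21, adjusted p = 0.0042). Whether these regulators relate to the members' difference was not tested. The factors Gabpa (0.013) and Tfam (0.027) did not pass.

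In the tricarboxylic acid cycle and pyruvate entry list, 20 of 23 genes were lower at 0 h with a median of -0.079. At that time 2.4% of all probesets were called. Dlst, a subunit of the 2-oxoglutarate dehydrogenase complex, fell by 0.18 (adjusted p = 0.0094), and Pdk4, a kinase that shuts off pyruvate entry, rose by 1.10 (adjusted p = 7.04e-07). Protein import had 2 of 20 fallen (Tomm40, the outer membrane pore, -0.33, and Timm50, an inner membrane receptor, -0.25; median -0.053). Antioxidant and dynamics genes had 1 of 20 fallen (Park7, -0.15; median -0.029) and carriers and pores 0 of 16 (median -0.040). In all these lists 0 genes passed at 8 h, 72 h or 7 d. Only 1 of 13 mitochondrially encoded genes was measured under a symbol of the list, at 0.049 at 0 h, so the share of the chain encoded in the organelle could hardly be followed.

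Markers of several cell types also differed at 0 h, when 2.4% of all probesets were called. Endothelial and mural markers were lower for 11 of 11 genes (3 fell, median -0.23), and their mean level ranged from 8.56 to 8.73 in CIE mice and from 8.76 to 9.04 in Ctrl mice, with no overlap. Microglia markers were lower for 8 of 9 genes (1 fell, median -0.25), with 9.40 to 9.81 in CIE mice and 9.77 to 10.16 in Ctrl mice. Choroid plexus and ependyma markers were higher for 7 of 8 genes (1 rose, median 0.21), with 6.24 to 6.53 in CIE mice and 6.07 to 6.31 in Ctrl mice. Medium spiny neuron markers were higher for 7 of 7 genes (none called, median 0.33), with 10.11 to 11.10 in CIE mice and 9.79 to 10.61 in Ctrl mice. Neuron markers had a median of -0.061, astrocyte markers -0.081, oligodendrocyte markers 0.081 and BNST markers 0.12, and 0 genes of these 4 lists passed. In bulk tissue fewer cells of a type and less RNA per cell cannot be told apart, and the part of cell composition in the members' difference was not tested.

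At 8 h the members' signal was again lower in CIE mice, by less than at 0 h. The median was -0.039 against -0.0017 for all probesets, and 141 of 185 members were lower. The call rule was met by 2 members (1.08%), both of which fell, while 0.557% of all probesets were called at this time. The mean over members was 10.67 ± 0.03 in CIE mice and 10.71 ± 0.03 in Ctrl mice (SD, n = 6 each), and 4 of 6 CIE mice lay below every Ctrl mouse.

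Ndufab1 probeset 1435934_at had its largest difference at 8 h, with 7.88, 7.97 and 8.03 in CIE mice against 8.24, 8.36 and 8.43 in Ctrl mice. It fell by 0.39 ± 0.05 (adjusted p = 7.16e-07), a difference of -23.7%, with no overlap. The representative probeset of Ndufab1 differed by only -0.063 at 8 h and was not called. The 5 probesets of Ndufab1 ranged from -0.39 to 0.053 at 8 h and did not share a sign. The other called probeset was 1459885_s_at of Cox7c, a small subunit of complex IV, with 7.40, 7.61 and 7.65 in CIE mice against 7.83, 7.92 and 8.02 in Ctrl mice. It fell by 0.37 ± 0.06 (adjusted p = 2.41e-04), and the groups did not overlap. The second Cox7c probeset, 1459884_at, was -0.36 (adjusted p = 0.153). Of the 5 uncalled probesets of Ndufab1 and Cox7c, 3 were lower in CIE mice at 8 h. Atp5g1 1444874_at was -0.30 (adjusted p = 0.0185) and Ndufa10 1418068_at -0.21 (adjusted p = 0.0829). The averaged ATP synthase level was 11.38 ± 0.02 in CIE mice and 11.44 ± 0.03 in Ctrl mice (SD, n = 6 each), and assembly factors were near 0 with a median of -0.0025.

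At 72 h, 0 members passed with LIMMA, while 0.433% of all probesets were called, and 22 members had an unadjusted p below 0.05 (20 lower, 2 higher), which is 11.9% of members and 12.6% of all probesets. The median was -0.033 against -0.00042 for all probesets, with 135 of 185 lower. Assembly factors had the lowest class median (-0.061, 14 of 16 lower), and 5 of 6 CIE mice lay below every Ctrl mouse for their averaged level. The closest to the threshold was Ndufaf8, a complex I assembly factor, with 10.30, 10.35 and 10.39 in CIE mice against 10.40, 10.54 and 10.62 in Ctrl mice. The groups did not overlap, with a difference of -0.18 ± 0.05 (adjusted p = 0.0341). Of the members called at 0 h, Ndufaf2 was -0.21 (adjusted p = 0.105), and 5 of 6 CIE mice had values under the lowest Ctrl value. Atp5pb 1426742_at was -0.078 (adjusted p = 0.304), and again all 6 CIE mice lay below every Ctrl mouse. Cox7a2l was -0.12 (adjusted p = 0.0856) and Atp5g1 1444874_at 0.21 (adjusted p = 0.120). At this time microglia markers were lower for 9 of 9 genes (median -0.46), with a mean level of 9.55 to 9.91 in CIE mice and 10.03 to 10.16 in Ctrl mice, with no overlap (1 fell). Oligodendrocyte markers were lower for 9 of 9 genes (1 fell, median -0.23), with 11.92 to 12.07 in CIE mice and 12.18 to 12.27 in Ctrl mice, again with no overlap. Astrocyte markers were lower for 8 of 10 genes (1 fell, median -0.065), with 10.99 to 11.19 in CIE mice and 11.19 to 11.31 in Ctrl mice. Medium spiny neuron markers were lower for 7 of 7 genes (none called, median -0.21), with 10.02 to 10.54 in CIE mice and 10.19 to 10.75 in Ctrl mice. Neuron markers were lower for 3 of 13 genes (1 rose, median 0.11), with 12.10 to 12.17 in CIE mice and 12.05 to 12.12 in Ctrl mice. BNST markers were lower for 3 of 11 genes (1 fell, median 0.28), with 9.64 to 9.78 in CIE mice and 9.45 to 9.64 in Ctrl mice. Endothelial and mural markers had a median of -0.0088 and choroid plexus and ependyma markers 0.080, with 0 called. The part of these cell types in the members' difference was not tested.

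At 7 d, 0 members passed with LIMMA and 0% of all probesets were called. The median was -0.020 against 0.0072 for all probesets, with 128 of 185 lower, and 3 members had an unadjusted p below 0.05 (0 lower, 3 higher), which is 1.62% of members and 4.94% of all probesets. These were Ndufab1 1435934_at (0.14), Cox7b2 (0.22) and a probeset of Atp5g2, another c subunit gene (0.14). Atp5g1 1444874_at had 6.57, 6.51, 6.83 and 6.70 in the 4 CIE mice, against 6.49, 6.57 and 6.66 as lowest, median and highest in Ctrl mice. The groups overlapped, and this time had the fewest CIE arrays.

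Whether the CIE minus Ctrl difference changed with time was tested with a moderated F test over the 4 times. It passed for 2 members (1.08%), and 1.04% of all probesets were called. These were Atp5g1 1444874_at (adjusted p = 3.73e-06) and Ndufab1 1435934_at (adjusted p = 2.31e-05). The difference of Atp5g1 1444874_at was higher at 72 h than at 0 h by 0.77 ± 0.10 (SE, adjusted p = 3.42e-06). For this probeset it lay below 0 at 0 h, where it was called, and above 0 at 72 h, where it was not. The representative Atp5g1 probeset stayed below 0 at each time (-0.092, -0.051, -0.046 and -0.012), and no representative passed this F test. Just outside were Cox7c 1459885_s_at (adjusted p = 0.0124) and Ndufa10 1418068_at (adjusted p = 0.0125). For the other members the change between times was not called, and the median change of the difference, 72 h over 0 h, was 0.046.

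Time was also followed within each treatment, and the members' averaged level moved in both. In CIE mice it was 10.63, 10.67, 10.71 and 10.64 at 0 h, 8 h, 72 h and 7 d. In Ctrl mice it was 10.71, 10.71, 10.74 and 10.66 at the same times. The gap between the treatments was widest at 0 h and narrowest at 7 d, when the Ctrl level was also at its lowest.

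**Figure D5:**
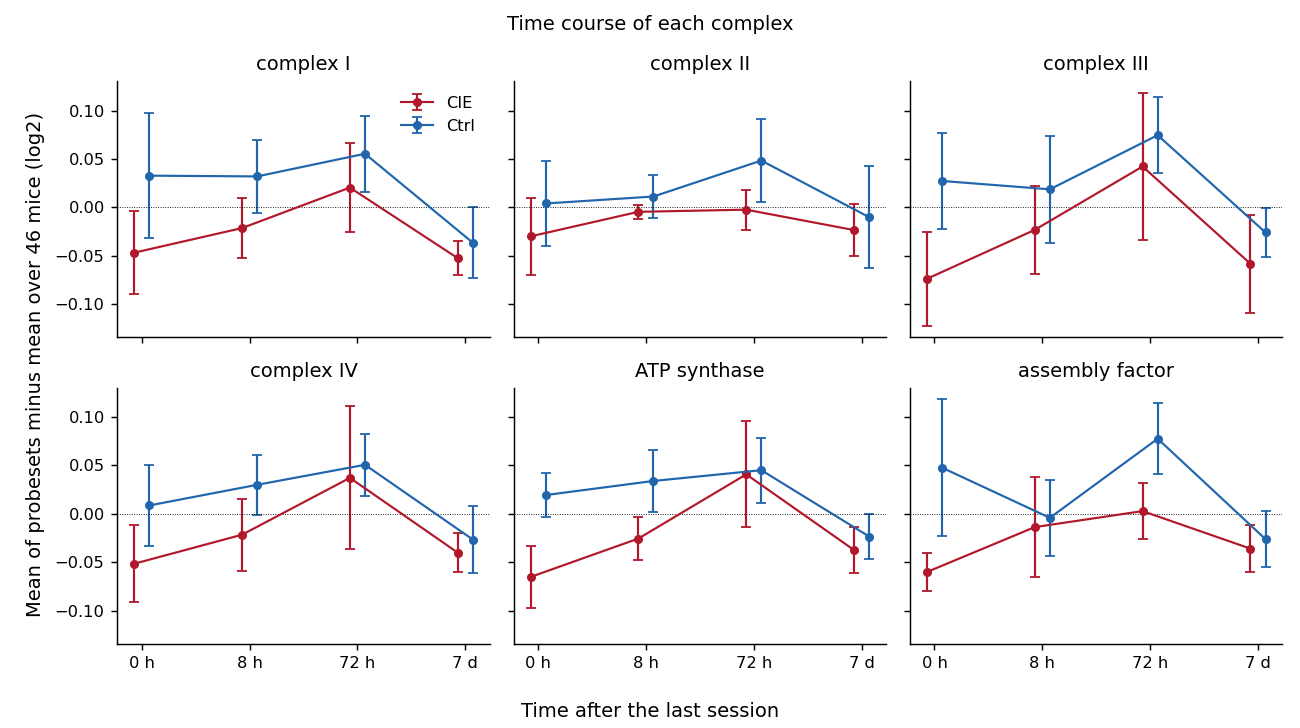
Class mean of log2 intensity at each time after the last session, for CIE and Ctrl mice, by complex, with SD over mice as error bars. CIE lies below Ctrl in all 6 classes at 0 h, and both treatments lie lower at 7 d than at 72 h.

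In CIE mice at 72 h over 0 h the members' median difference was 0.071 against 0.015 for all probesets. The call rule was met by 11 members (5.95%), all of which rose, while 6.07% of all probesets were called, so the share of members called was at the background. Uqcrb, a small subunit of complex III, rose on both its probesets. Its representative 1455997_a_at had 13.64, 13.67 and 13.71 at 72 h, against 13.52, 13.53 and 13.54 at 0 h, and rose by 0.14 ± 0.03 (adjusted p = 5.7e-04), and 1416337_at rose by 0.20 ± 0.04 (adjusted p = 7.4e-04). At 0 h itself this Uqcrb probeset did not overlap between CIE and Ctrl mice (13.56, 13.62 and 13.65 in Ctrl mice) but was not called (-0.088, adjusted p = 0.0679).

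The other probesets that rose in CIE mice by 72 h spanned complexes I, II, IV, ATP synthase and the assembly factors. Atp5g1 1444874_at rose by 0.61 and Ndufa10 1418068_at by 0.41. Ndufs4, a complex I subunit whose loss causes a Leigh-like disease in mice, rose by 0.26 on 1418117_at, and Ndufs8 1423908_at rose by 0.22. The assembly factors Ndufaf4 (1435333_at) and Ndufaf3 rose by 0.23 and 0.19, Ndufb7, a membrane arm subunit of complex I, by 0.19 on 1448331_at, and Cox6b1, a complex IV subunit facing the intermembrane space, by 0.15 on 1416565_at. Sdha 1426689_s_at rose by 0.14 and was also higher at 8 h than at 0 h by 0.14 (adjusted p = 0.00247), whereas the representative Sdha probeset was not called. Between 8 h and 0 h in CIE mice 2 members passed (1.08%), both of which rose (this Sdha probeset and Atp5g1 1444874_at), and 3.24% of all probesets were called.

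Late in the time course the averaged level fell in both treatments, in CIE mice from 10.71 at 72 h to 10.64 at 7 d. Calls between these times are given for Ctrl mice only. In Ctrl mice the median difference between 7 d and 72 h was -0.082 against -0.019 for all probesets. There 14 members of 11 genes passed (7.57%), all of which fell, while 5.16% of all probesets were called. Cox7a1 had 5.95, 6.38 and 6.63 at 7 d, against 6.73, 6.92 and 7.31 at 72 h, with no overlap, and fell by 0.61 ± 0.14 (adjusted p = 0.00462). Sdhc, a membrane anchor of complex II, fell by 0.26 and Uqcr10, a small subunit of complex III, by 0.27 on 1434341_x_at. Cox7a2l fell on 2 probesets (by 0.15 and 0.16), as did Ndufc1 (by 0.16 and 0.17) and Ndufab1 (by 0.25 and 0.30). Between 7 d and 0 h in Ctrl mice 4 members passed (2.16%), all of which fell (Atp5g1 1444874_at, both these Ndufab1 probesets and Ndufaf1), and 2.23% of all probesets were called.

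The F test over the 4 times passed for 9 members in CIE mice (4.86%), with 7.76% of all probesets called. In Ctrl mice it passed for 12 members (6.49%), with 10.9% of all probesets called. In this fit the members' share was below the background in both treatments, but not in every setting. At an adjusted p of 0.05 the Ctrl time course was called for 22.7% of members and 22.4% of all probesets. With array weights the CIE time course was called for 14.6% of members and 14.8% of all probesets. The sources used here do not give the day on which each mouse was collected, so its part in these time courses was not tested.

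Members also varied together between mice of a group. Over the 46 mice, after group means were removed, the median pairwise correlation among the 88 brighter representatives was 0.30, with 0.38 within complex I, 0.34 within ATP synthase, 0.32 within complex IV and 0.20 within complex III. It was 0.27 among mitochondrial ribosomal protein genes, 0.19 among cytosolic ribosomal protein genes and 0.13 among proteasome genes. Arrays, normalization and probe brightness are shared by these points, and the values are a description. The genes that followed the mean of the other members most closely were Ndufs7 (0.88), the bright Atp5g1 probeset (0.87) and Ndufb9 (0.86), while the assembly factors Ndufaf4 (-0.46) and Sdhaf2 (-0.21) ran against it.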

How the data were processed

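RNA of the BNST was hybridized by the study's authors to Affymetrix mouse arrays, 46 arrays from 46 mice. Per the labels and the study's methods, the deposited log2 intensities came from RMA, with quantile normalization within hybridization batches and then over all arrays, followed by ComBat for hybridization group. The sources used here do not give the batch of each array, which therefore could not enter the fit, and 0 columns of the table were left unused. No read depth exists for arrays, and their number limits the precision.

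From these values LIMMA (limma 3.58.1, R 4.3.3) was fitted to the means of the 8 groups over 45037 probesets (38 residual and 3.94 prior degrees of freedom, median residual SD 0.13), with no filter on dim probesets. CIE minus Ctrl at each time, the change of that difference and the time course within each treatment were tested with moderated t and F statistics and Benjamini-Hochberg adjustment, and calls required an adjusted p no greater than 0.01. The script was tested on simulated data first. Genes were named by their platform symbol, where 34945 probesets had 1 symbol, 932 several and 9160 none, and 10 probesets of the rule with several symbols were not counted. Named genes were the called members, the members nearest to the threshold and a fixed set of core subunits by their representative, and called probesets that are not the representative were named after their values were seen. Members, lists and tests were chosen with earlier results of these data known. Kinases with symbols beginning Rps6k were left out of the cytosolic ribosomal set. The labels give each mouse its own number, and since nothing describes a repeat of the whole exposure, p-values cover the spread between mice of 1 exposure. Alternatives were array weights, only the groups compared, aligned medians, another quantile normalization, only brighter probesets, a mean-variance trend, a threshold of 0.05, 1 probeset per gene, no _x_at or _s_at probesets, and each array left out in turn.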

Additional observations from a re-analysis of the deposited data

Results flagged for a closer look

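Of 120 checks of a group of 4 to 6 mice, 7 (5.83%) held a mouse far from the rest, and chance gives about 1 in 20. Ctrl replicate 48 at 0 h had a low mean over complex IV probesets (10.23, nearest mouse 10.31). CIE replicate 21 at 8 h had a high mean over ATP synthase probesets (11.43, nearest 11.38) and a high Ndufaf2 value (8.69, nearest 8.41). Ctrl replicate 58 at 8 h had a low mean over assembly factors (9.23, nearest 9.29). Ctrl replicate 68 at 72 h was high for Ndufa10 1418068_at (8.29, nearest 8.09) and for Cox7c 1459885_s_at (7.99, nearest 7.83). CIE replicate 45 at 7 d was low for Cox7c 1459885_s_at (7.55, nearest 7.75).

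The CIE minus Ctrl difference changed between times for 2 members by LIMMA's F test, Atp5g1 1444874_at (adjusted p = 3.73e-06) and Ndufab1 1435934_at (adjusted p = 2.31e-05). For this Atp5g1 probeset the difference was -0.56 at 0 h, -0.30 at 8 h, 0.21 at 72 h and 0.08 at 7 d. For this Ndufab1 probeset it was -0.23 at 0 h, -0.39 at 8 h, -0.09 at 72 h and 0.14 at 7 d. The representatives of both genes stayed below 0 at each time, with -0.046 for Atp5g1 at 72 h and -0.018 for Ndufab1 at 7 d.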

How the results depend on the processing

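No paired analysis was possible because the replicate numbers name single mice and no number is shared between groups. The number of members called moved with several choices. The share of all probesets called in the same fit is given after each count in parentheses. At 0 h (7 called) it was 16 among the 160 brighter member probesets (5.52%), 14 with a mean-variance trend (2.53%) and 21 at an adjusted p of 0.05 (4.92%). It was 1 over representatives (2.4%) and 1 with the 2 groups alone (0.637%). As shares of members these were 10% among brighter probesets, 7.57% with the trend, 11.4% at 0.05 and 0.541% with the 2 groups alone. At 8 h (2 called) it was 1 over representatives (0.557%), 1 without _x_at and _s_at probesets (0.557%) and 1 with the 2 groups alone (0.0799%). At 72 h (0 called) it was 1 with array weights (2.56%) and 1 at an adjusted p of 0.05 (1.71%). For the change of the CIE minus Ctrl difference (2 called) it was 4 with array weights (2.09%) and 4 among the brighter probesets (2.79%). It was also 4 at an adjusted p of 0.05 (2.70%), and 0 over representatives (1.04%). For the Ctrl time course (12 called) it was 42 at an adjusted p of 0.05 (22.4%) and 5 over representatives (10.9%). For the CIE time course (9 called) it was 27 with array weights (14.8%), 14 among the brighter probesets (16.3%) and 14 with the trend (8.07%). It was 25 at an adjusted p of 0.05 (14.5%) and 2 over representatives (7.76%). As shares of members, the Ctrl time course had 22.7% at 0.05. The CIE time course had 14.6% with array weights, 8.75% among brighter probesets, 7.57% with the trend and 13.5% at 0.05. Representatives and the 2 groups alone have fewer probesets or arrays by construction, and otherwise the cause was not tested.

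With each array left out in turn, 3 to 20 members were called at 0 h (1.53% to 3.24% of all probesets). At 8 h it was 2 to 3 (0.36% to 0.644% of all), at 72 h 0 (0.0622% to 0.833%) and at 7 d 0 (0% to 0.00222%). The change of the difference had 2 to 4. It was 4 (2.16% of members) without Ctrl replicate 68 or CIE replicate 29 of 72 h (0.981% and 1.04% of all). The Ctrl time course had 4 to 18. It was 4 (2.16%) without Ctrl replicate 28 or 36 of 7 d (7.5% and 7.17% of all). It was 6 (3.24%) without 62 (10% of all) and 7 (3.78%) without 80 (8.1% of all). It was 18 (9.73%) without Ctrl replicate 48 of 0 h (14.4% of all). The CIE time course had 5 to 11. It was 5 (2.7%) without CIE replicate 26 or 57 of 0 h (5.9% and 5.6% of all). It was 11 (5.95%) without Ctrl replicate 48 of 0 h (8.72% of all). The median difference stayed below 0 in these fits, from -0.086 to -0.062 at 0 h, -0.051 to -0.029 at 8 h, -0.043 to -0.018 at 72 h and -0.028 to -0.011 at 7 d. Among the 9 named calls, Atp5g1 at 0 h and Ndufab1 1435934_at at 8 h were kept in all 7 alternatives, and the other 7 were each lost with the 2 groups alone. The adjusted p ranged from 0.00437 to 0.0535 for Ndufs8 (lost in 3), from 0.00288 to 0.0436 for Ndufa10 (lost in 2), and, for those lost once, up to 0.155 for Atp5pb, 0.0559 and 0.0313 for the Ndufab1 probesets 1435934_at and 1458678_at at 0 h, 0.0481 for Ndufaf2 and 0.0114 for Cox7c. With an array left out, Ndufaf2 lost its call in 8 of 46 fits, Ndufa10 in 6 and Atp5pb in 4.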
